A study of Mus musculus with 3 samples.

Results

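The Serpin genes of the mouse genome were described in the choroid plexus epithelium (CPE), the cell layer that secretes cerebrospinal fluid and separates it from the blood. Members were all probes, other than control spots, whose gene name in the scanner files began with Serpin. They numbered 73 probes of 55 genes, out of 41174 probes of 22340 genes with a symbol. CPE cells of 3 healthy adult wild-type C57BL/6 mice were cut by laser from frozen sections of the brain to leave the stroma and its vessels behind, and their amplified RNA was hybridised in the Cy5 channel of 3 arrays. Every array carried, in the Cy3 channel, the same reference RNA, taken from the choroid and the adjoining pigment epithelium of the retina (RPE) of C57BL/6 mice. Dyes were never swapped, so a preference of a probe for a dye stayed in its ratio.

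Serpins are proteins of a common fold, most of which inhibit proteases. The protease cuts an exposed loop of the serpin, the serpin then changes shape, and both stay locked together by a covalent bond. Clade A holds mainly plasma proteins made by the liver, clade B holds proteins without a secretion signal that work inside cells, and the other clades hold inhibitors of clotting, plasminogen activation and complement. A few members, such as the collagen chaperone *Serpinh1* and the secreted factor *Serpinf1*, inhibit no protease.

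In the CPE a single Serpin stood far above the reference: *Serpinb1b*, from a small family related to an inhibitor of neutrophil elastase, with a mean ratio 21.1-fold higher at its brightest probe, whose reference signal was well above background on 1 array of 3, and 5.62-fold higher at its other probe. *Serpind1*, the thrombin inhibitor heparin cofactor II, was 2.30-fold higher. Of the 30 Serpin genes tested 11 were lower, beside 11.3% of all genes tested, and *Serpinb11* was the lowest, by 8.83-fold. In 1 gene cluster on chromosome 1 lay 5 of the 11. All of these 5 but *Serpinb5* entered the test only through their reference signal, so these counts are a description. The brightest CPE signals were those of *Serpinh1*, *Serpinb6a* and *Serpinb1b*.

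RefSeq promoter windows, from 250 bases before to 50 after the start of transcription on build GRCm38.p6, were matched by symbol to 45 of the 55 genes. They are shown for the gene with the highest ratio, *Serpinb1b* (chr13:33083853-33084152, + strand), and for 4 genes of chromosome 1 that were lower in the CPE, namely *Serpinb3a* (chr1:107052254-107052553, - strand), *Serpinb3b* (chr1:107161065-107161364, - strand), *Serpinb3c* (chr1:107278322-107278621, - strand) and *Serpinb11* (chr1:107362064-107362363, + strand). Capitals mark matches, on either strand, to 5 motifs. TATAAA belongs to the classical core promoter, CCAAT is bound by NF-Y, GGGCGG by SP1 and TAATCC by OTX proteins. TGANTCA takes any base at its centre, and is looser than the AP-1 site, which has C or G there. No matches overlapped in these windows.
Serpinb1b: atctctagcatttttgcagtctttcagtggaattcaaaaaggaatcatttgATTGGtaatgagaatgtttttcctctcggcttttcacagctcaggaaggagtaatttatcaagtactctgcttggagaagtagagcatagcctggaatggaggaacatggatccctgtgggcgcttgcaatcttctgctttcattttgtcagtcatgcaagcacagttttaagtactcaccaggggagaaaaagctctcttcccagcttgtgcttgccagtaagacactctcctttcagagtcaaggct
Serpinb3a: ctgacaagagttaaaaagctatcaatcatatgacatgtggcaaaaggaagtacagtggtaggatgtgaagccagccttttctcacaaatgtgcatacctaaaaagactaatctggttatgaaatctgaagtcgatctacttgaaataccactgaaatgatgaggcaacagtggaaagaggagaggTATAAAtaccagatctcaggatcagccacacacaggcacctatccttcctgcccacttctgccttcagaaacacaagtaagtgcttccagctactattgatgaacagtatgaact
Serpinb3b: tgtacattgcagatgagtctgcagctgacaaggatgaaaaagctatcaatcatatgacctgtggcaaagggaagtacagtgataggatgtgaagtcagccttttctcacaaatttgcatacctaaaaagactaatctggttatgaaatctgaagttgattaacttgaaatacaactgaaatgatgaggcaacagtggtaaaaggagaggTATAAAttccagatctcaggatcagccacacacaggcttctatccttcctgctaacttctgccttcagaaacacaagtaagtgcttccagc
Serpinb3c: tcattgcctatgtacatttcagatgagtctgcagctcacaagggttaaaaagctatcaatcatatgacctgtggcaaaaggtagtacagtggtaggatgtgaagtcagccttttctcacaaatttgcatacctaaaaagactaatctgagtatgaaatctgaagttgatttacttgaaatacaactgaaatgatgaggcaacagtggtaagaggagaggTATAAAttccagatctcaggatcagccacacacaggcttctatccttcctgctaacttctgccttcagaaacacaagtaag
Serpinb11: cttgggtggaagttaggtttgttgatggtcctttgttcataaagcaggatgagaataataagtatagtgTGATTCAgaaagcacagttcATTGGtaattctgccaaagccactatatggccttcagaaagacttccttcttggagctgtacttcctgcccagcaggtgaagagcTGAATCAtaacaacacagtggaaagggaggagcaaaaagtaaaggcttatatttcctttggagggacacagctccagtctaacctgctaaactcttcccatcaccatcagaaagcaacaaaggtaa
The 3 *Serpinb3* windows held TATAAA 65, 41 and 31 bases before the start, and no other motif of the 5. In global alignments, with gaps at the window ends counted as differences, *Serpinb3b* and *Serpinb3c* were 90% identical. *Serpinb3a* was 79.3% and 74.9% identical to them, and *Serpinb3d*, the fourth of these genes, was 50.3% to 50.4% identical to the others. The first 3 windows are offset against each other, as their TATAAA positions show, and this offset lowers their figures. Pairs that involved *Serpinb1b* or *Serpinb11* lay between 48.6% and 56.0%. TATAAA occurred in 13.6% of all 32851 windows and in 18 of the 53 Serpin windows, TGANTCA in 7.81% and in 11, CCAAT in 37.4% and in 17, GGGCGG in 35.7% and in 8, and TAATCC in 7.06% and in 1. *Serpinb11* held TGANTCA at 181 and 76 bases before its start and CCAAT at 161. Its TGANTCA matches read TGATTCA and TGAATCA, with T or A and not C or G at the centre. *Serpinb1b* held CCAAT alone, at 199. Such matches describe letters in the window and not bound sites.

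The levels given next are log2 intensities of a channel after normalization between arrays, and a percentile ranks the CPE level of a probe among all probes of the array. As in the methods of the study, high expression lay above percentile 90, moderate expression between 50 and 90, low expression between 10 and 50 and very low expression below 10. By the brightest probe of each gene, 3 Serpin genes were high, 15 moderate, 30 low and 7 very low. The CPE signal was well above background on all 3 arrays for 16 of the 55 Serpin genes (29.1%), beside 57.6% of all genes, and the reference signal for 28 (50.9%), beside 69.5% of all genes. Because hybridisation differs from probe to probe, percentiles of different genes say nothing of which transcript was more abundant.

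**Figure D1:**
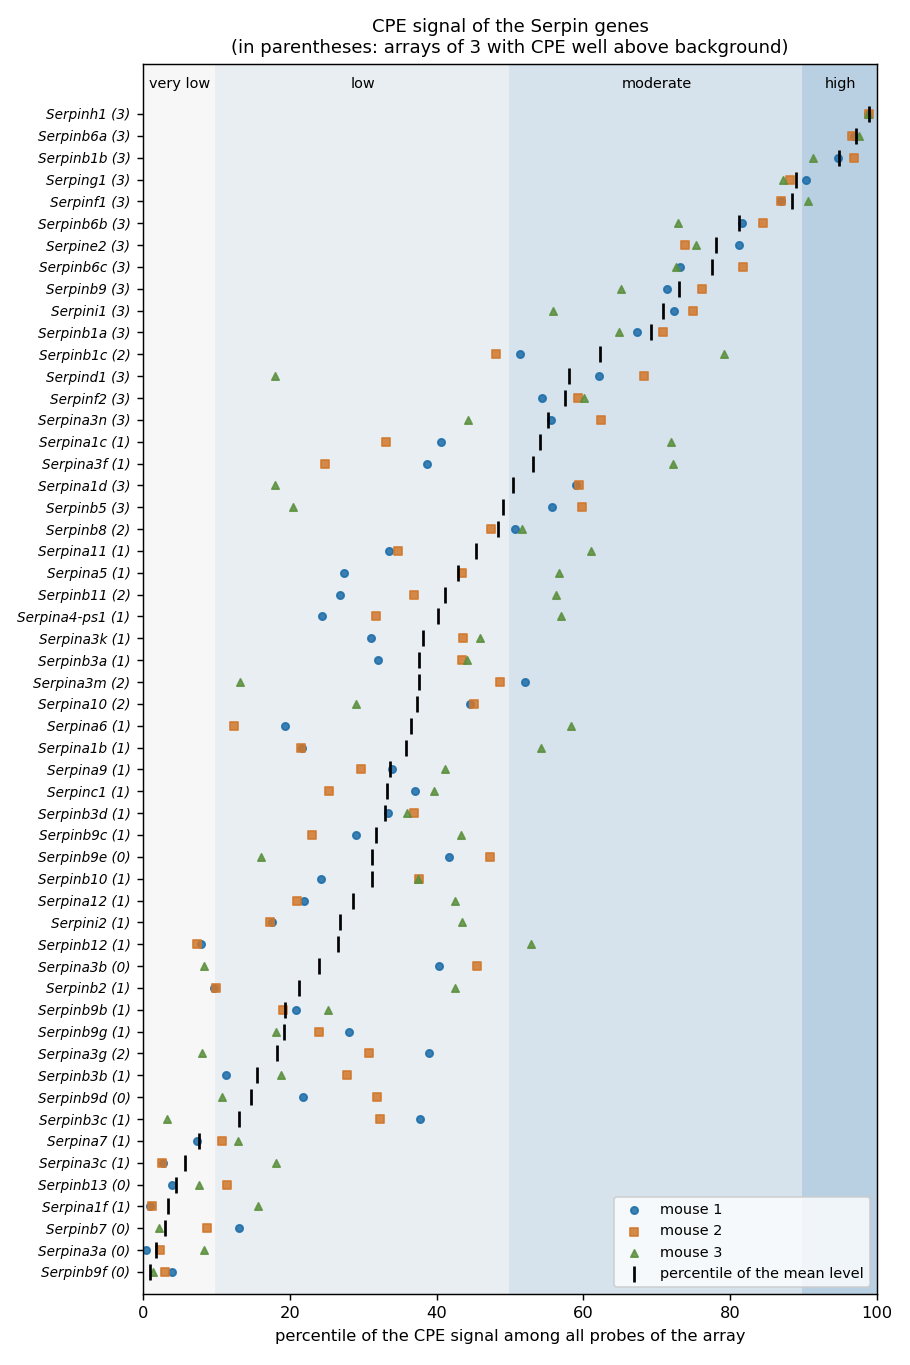
Percentile of the CPE signal among all probes (x axis) for the brightest probe of 54 of the 55 Serpin genes (y axis), with 1 point per mouse, a black bar for the percentile of the mean level, shaded classes and, in parentheses, the number of arrays with a CPE signal well above background. The mice lie close together for *Serpinh1*, between 98.8 and 98.9, and far apart for dim genes, as for *Serpina3f*.

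*Serpinh1* encodes HSP47, which binds procollagen in the endoplasmic reticulum. Its CPE levels were 13.87, 13.72 and 13.61 in mice 1, 2 and 3, against 11.89, 12.25 and 12.04 in the reference channel of the same arrays. All 3 mice lay above percentile 98, and no Serpin probe was saturated. *Serpinb6a*, an inhibitor of cathepsin G and other serine proteases inside cells, had CPE levels of 12.62, 12.24 and 12.78 against 11.50, 11.90 and 11.95 in the reference, and lay at percentile 97.1. Levels are not corrected for dye: those of *Serpinb6a* were higher in the CPE channel in every mouse, while its ratios after loess, given further on, were below 0 in every mouse. Its other probe lay at 39.9, with a CPE signal above background in 1 array. *Serpinb1b* had CPE levels of 11.92, 12.36 and 11.07 at its brightest probe, against 7.04, 7.47 and 7.41 in the reference, and lay at percentile 94.9. Mouse 3 had the lowest CPE level at that probe. At the other *Serpinb1b* probe the CPE levels were 10.63, 9.92 and 10.54, lowest in mouse 2.

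Just under the limit of the high class lay 2 secreted serpins. *Serping1*, the C1 inhibitor of the complement and contact systems, lay at percentiles 90.4, 88.2 and 87.2 and *Serpinf1*, pigment epithelium-derived factor, at 86.9, 86.9 and 90.6. Each was thus above 90 in 1 mouse. At the dim end 7 genes, among them 4 of clade A and the clade B genes *Serpinb7*, *Serpinb13* and *Serpinb9f*, had percentiles under 10.

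The comparison of the CPE with the reference used the log2 ratio of both channels after background correction and loess normalization within each array. A probe was tested with limma where at least 1 channel was well above background on every array, which held for 41 of the 73 Serpin probes and 30 of the 55 genes. It was past the threshold at a Benjamini-Hochberg adjusted p under 0.05, over all 25841 probes tested, and a change of at least 2-fold. By their brightest probe 2 Serpin genes were higher in CPE and 11 lower, beside 8.77% of all genes tested that were higher and 11.3% that were lower. Of the probes, 3 were higher and 13 lower, beside 7.09% and 10.2% of all probes tested. Of the 11 lower genes, 5 entered the test only through their reference signal, and both higher genes only through their CPE signal, so the numbers among those tested are a description. The median log2 ratio was -0.31 over the 30 Serpin genes tested and -0.02 over all 15854 genes tested. Of those 30 genes, 16 had a CPE signal well above background on all arrays and 28 a reference signal. The Serpin median thus depends on the channel through which genes entered, and is a description too. The test sets each ratio against 0 and leaves out the spread of the reference tissue, since the reference was 1 RNA. The CPE samples came from different mouse brains.

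**Figure D2:**
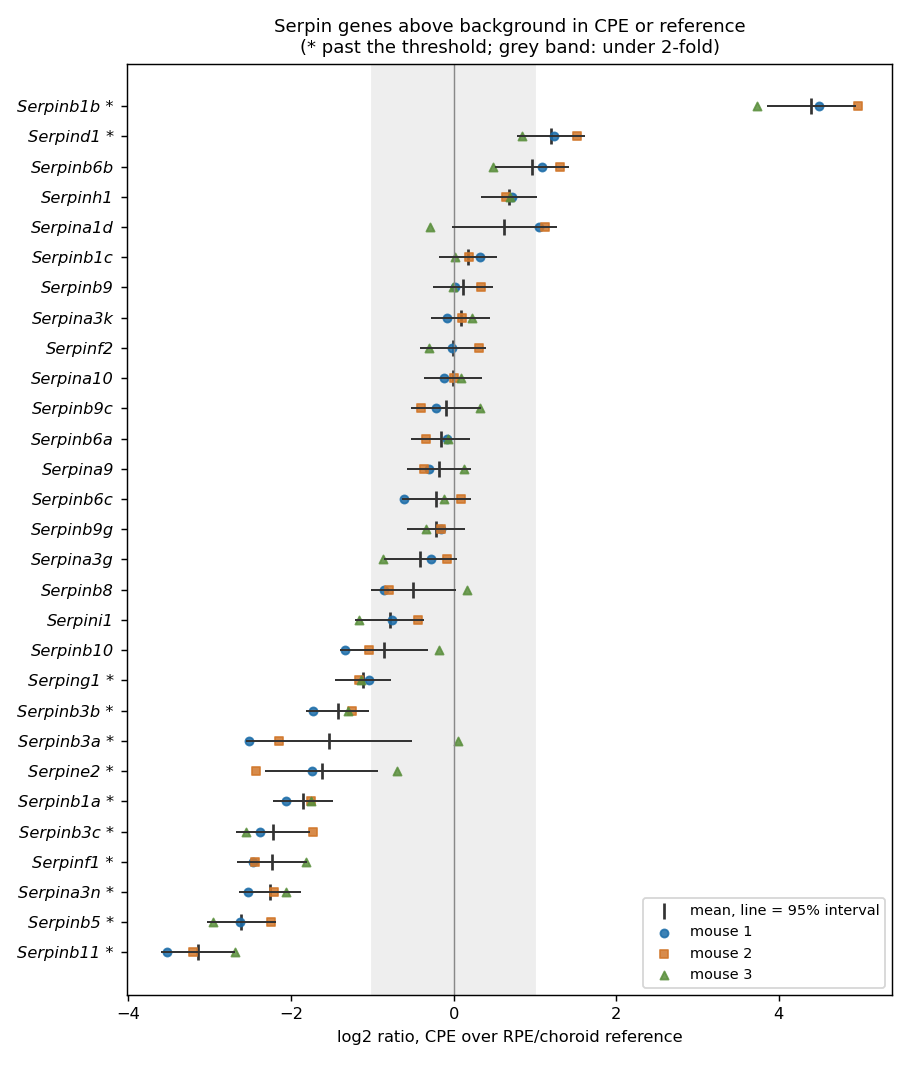
Log2 ratio of CPE over reference (x axis) for the brightest probe of 29 of the 30 Serpin genes tested (y axis), with 1 point per mouse, the mean as a bar and its 95% interval as a line. Asterisks mark genes past the threshold and the grey band holds ratios under 2-fold; *Serpinb1b* stands alone at a mean of 4.40, while the lower genes run down to -3.14 for *Serpinb11*.

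*Serpinb1b* was higher in each mouse at both of its probes. At the brightest probe (chromosome 13, 33101595 to 33101654, mm8) the log2 ratios were 4.49, 4.97 and 3.74, with a mean of 4.40 ± 0.24 (SE, n = 3) and an adjusted p of 1.88e-05 in limma. The reference signal of that probe was well above background on 1 array of 3, and the CPE signal on all of them. At the other probe (33098821 to 33098880) the ratios were 3.15, 2.86 and 1.47, with a mean of 2.49 (limma adjusted p = 0.000718). Both probes showed the lowest ratio in mouse 3. Over the other settings the mean of the brightest probe ranged from 3.84 to 7.05, and it was past the threshold in each that tested it.

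*Serpind1* (chromosome 16, 17257014 to 17257073) had log2 ratios of 1.24, 1.52 and 0.84 in the 3 mice, with a mean of 1.20 ± 0.18 (SE, n = 3) and a limma adjusted p of 0.00180. The CPE was the higher channel in every mouse, though in mouse 3 by less than 2-fold, and the reference signal was well above background on 2 arrays. Its signal was moderate in mice 1 and 2, at percentiles 62.2 and 68.3, and low in mouse 3, at 18.0. The ratio fell under the 2-fold limit without background correction, at 0.93, and with median centring in place of loess, at 0.97. Adjusted p-values ran from 0.000373 to 0.0329 over the settings that test against 0, and the call was also lost in a test against a 2-fold change (limma treat, adjusted p = 1).

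Further Serpins were higher in the CPE by less than 2-fold. The ratios of *Serpinh1* were 0.72, 0.64 and 0.69, with a mean of 0.69 ± 0.15 (SE, n = 3; limma adjusted p = 0.00904). The mice lay close together. With median centring the mean became 1.53 (limma adjusted p = 0.00744, in a range of 0.00358 to 0.0796 over the settings that test against 0, and 1 with treat), past the threshold. *Serpinb6b*, a close relative of *Serpinb6a*, had ratios of 1.09, 1.31 and 0.49, with a mean of 0.96 ± 0.19 (SE, n = 3; limma adjusted p = 0.00681), and was named after its values had been seen. It lay just under the 2-fold limit and was past it with median centring, with the log ratio of the scanner software, with array weights and without mouse 3. *Serpinb6a* had ratios of -0.08, -0.34 and -0.06, and its mean of -0.16 turned to 0.61 with median centring; neither was past the threshold.

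The clade B genes lie in a cluster on chromosome 1 and another on chromosome 13, and the clusters are described one after the other. Of 12 genes on chromosome 1, 7 were tested, 5 were lower and 0 were higher. The lower genes were *Serpinb5*, *Serpinb3a*, *Serpinb3b*, *Serpinb3c* and *Serpinb11*, which lie on chromosome 1 from 108709555 to 109207785 in mm8, with *Serpinb12*, *Serpinb13* and *Serpinb3d*, too dim to be tested, among them, and are mostly known from skin and other lining epithelia. *Serpinb10* and *Serpinb8*, also tested there, had mean ratios of -0.86 and -0.49 and were not past the threshold. *Serpinb10* was past it with the log ratio of the scanner software (-2.14), with array weights (-1.07) and without mouse 3 (-1.19), and *Serpinb8* moved to -0.83 without mouse 3, still under 2-fold. The median ratio of the 7 was -1.53. Each of the 7 had a reference signal well above background on all arrays, and 1 of them had such a CPE signal. Most thus entered the test only through the reference, so these counts and this median are a description.

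*Serpinb11* had the lowest ratio of all Serpins, with -3.53, -3.21 and -2.69 in mice 1, 2 and 3 (mean -3.14 ± 0.19, SE, n = 3; limma adjusted p = 3.33e-05). *Serpinb5*, or maspin, which inhibits no protease and is known as a suppressor of tumour growth, had ratios of -2.63, -2.25 and -2.96 (mean -2.61 ± 0.18, SE, n = 3; limma adjusted p = 5.37e-05). Every mouse was lower by more than 4-fold for both genes. The CPE signal was well above background on 2 arrays for *Serpinb11* and on 3 for *Serpinb5*.

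*Serpinb3a*, *Serpinb3b* and *Serpinb3c*, relatives of the human squamous cell carcinoma antigens, were seen well above background in the CPE on 1 array each and in the reference on all. *Serpinb3c* had ratios of -2.38, -1.74 and -2.56 and *Serpinb3b* of -1.73, -1.25 and -1.30, so all mice were lower, though *Serpinb3b* was not past a test against a 2-fold change (limma treat, adjusted p = 0.231). *Serpinb3a* had -2.51, -2.15 and 0.06 at its brightest probe. Mouse 3 thus showed no difference there, and the call (mean -1.53 ± 0.44, SE, n = 3; limma adjusted p = 0.0272) was lost without mouse 1, at -1.05, with the log ratio of the scanner software and without a filter on dim probes. Without mouse 3 the mean was -2.33, and its adjusted p ran from 0.000570 to 0.111 over the settings that test against 0, and was 1 with treat. The other *Serpinb3a* probe was lower in every mouse, at -2.48, -1.89 and -1.06. The promoter windows of these genes, shown above, are close in sequence, and their transcripts are related too; hybridisation of 1 transcript to the probe of another was not tested. *Serpinb3d* was too close to the background to be tested.

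On chromosome 13, 9 of 13 clade B genes were tested, 1 was higher and 1 lower, and the median ratio was -0.10. The pair past the threshold belongs to the same small family. *Serpinb1a* (32850318 to 32850377), the mouse gene closest to the human inhibitor of neutrophil elastase, had ratios of -2.06, -1.75 and -1.75, with a mean of -1.85 ± 0.16 (SE, n = 3; limma adjusted p = 0.000129). *Serpinb1c*, which lies between *Serpinb1a* and *Serpinb1b*, had 0.33, 0.18 and 0.02, with a mean of 0.17 ± 0.15 (SE, n = 3) that turned to -0.09 with the log ratio of the scanner software. The 3 members thus lay apart in this comparison, *Serpinb1b* above the reference and *Serpinb1a* below it in every mouse. Whether the transcript of 1 member bound to the probe of another was not tested. In the CPE channel alone *Serpinb1a* lay at percentile 69.2 and *Serpinb1c* at 62.3. *Serpinb9*, which inhibits granzyme B, had ratios of 0.02, 0.34 and -0.01, near 0 in each mouse.

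**Figure D3:**
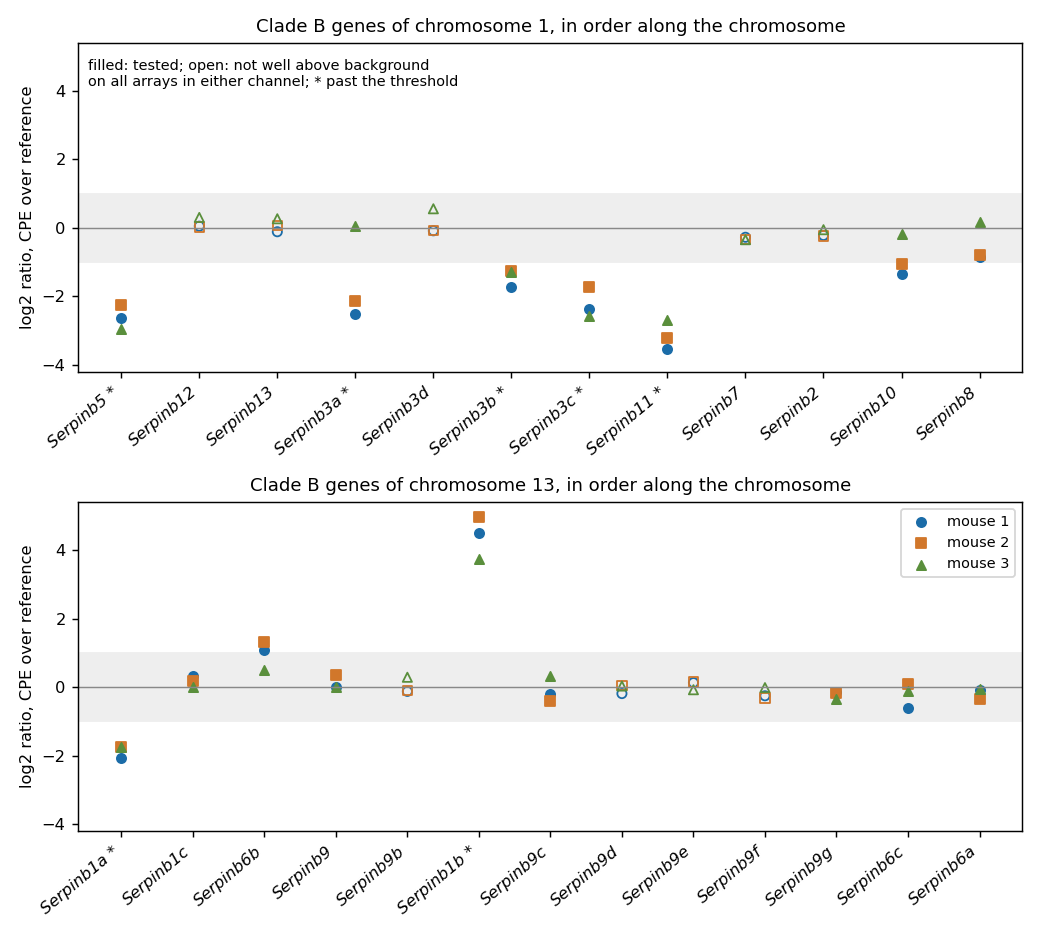
Log2 ratio of CPE over reference (y axis, 1 point per mouse) for the clade B genes of chromosome 1 (top) and chromosome 13 (bottom), in their order along the chromosome (x axis), at the brightest probe of each. Filled points were tested and open points were too dim to be tested; 5 genes of chromosome 1 lie below the grey band of 2-fold on average, and *Serpinb1a* and *Serpinb1b* of chromosome 13 lie on opposite sides of it.

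Of the 10 genes of clades C to I, 8 were tested, and 4 were lower and 1, *Serpind1*, higher. *Serpinf1* was lower at both probes. At the brightest probe (chromosome 11, 75226261 to 75226320) its ratios were -2.46, -2.44 and -1.81, with a mean of -2.24 ± 0.18 (SE, n = 3; limma adjusted p = 0.000113), and at the other probe -2.03, -2.70 and -1.62. RPE cells, which were part of the reference, are known to secrete this factor, while its CPE signal lay at percentile 88.5. *Serpine2*, protease nexin-1, which blocks thrombin and plasminogen activators at the cell surface, had -1.74, -2.44 and -0.70, with a mean of -1.62 ± 0.30 (SE, n = 3; limma adjusted p = 0.00458). All mice were lower, with mouse 3 inside the 2-fold band, and the call was lost with treat (limma adjusted p = 0.401).

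*Serping1* had ratios of -1.04, -1.16 and -1.14, close together, with a mean of -1.11 ± 0.15 (SE, n = 3; limma adjusted p = 0.00108). The call was lost with median centring in place of loess, where the mean was -0.46 (limma adjusted p = 0.343, in a range of 0.000391 to 0.343 over the settings that test against 0), and with treat (limma adjusted p = 1). *Serpini1*, or neuroserpin, an inhibitor of tissue plasminogen activator in the brain, had -0.76, -0.44 and -1.16 (mean -0.79 ± 0.18, SE, n = 3; limma adjusted p = 0.0120), under 2-fold. *Serpinf2*, which inhibits plasmin, had a mean ratio of -0.0023 and lay at percentile 57.5.

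Of the 20 clade A genes, 6 were tested and 1 was lower. *Serpina3n*, related to human antichymotrypsin and known from acute inflammation, had ratios of -2.53, -2.21 and -2.06 (mean -2.26 ± 0.16, SE, n = 3; limma adjusted p = 6.40e-05), with every mouse lower by over 4-fold. Its CPE signal was above background in all mice and lay at percentile 55.2. *Serpina1d*, a copy of the alpha-1 antitrypsin gene, had 1.05, 1.12 and -0.30, so that mouse 3 went against the others; it was past the threshold, at 1.08, only without that mouse, and was named after its values had been seen. Copies of *Serpina1* and *Serpina3* are similar in sequence, and which copy bound to a probe was not tested. Of 7 markers of hepatocytes, the main source of clade A proteins, 1 (*Apoa2*) was well above background in the CPE on all arrays and *Fgg* and *Apoh* on none. Summed intensities were 1120 to 2610 in the CPE and 1245 to 1349 in the reference. Of 3 tested, *Apoa2* was higher, with ratios of 1.77, 2.01 and 0.07 in mice 1, 2 and 3 (mean 1.29), and 0 were lower.

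Probes of a gene did not always lie in the same class. More than 1 probe was present for 18 Serpin genes, of which 10 spanned different classes, and of 9 with both outer probes tested, 8 had the same call. The exception was *Serpinb3c*, whose other probe had a mean ratio of -0.69 and was not past the threshold. *Serpinb8*, known as an inhibitor of furin, had a mean of -0.49 at its brightest probe and 0.35 at the other, neither past the threshold. The probes of *Serpinb6a* (-0.16 and 0.04) and *Serpinb1c* (0.17 and -0.06) also differed in sign, close to 0. Probes of *Serpinb2* and *Serpinb10* were not above background in the CPE on any array but were in the reference on all 3. At that of *Serpinb2* the bound on the mean of the arrays was 1.38-fold lower in the CPE, under 2-fold. Its mean ratio was -0.49, with an interval of -0.85 to -0.12 (limma adjusted p = 0.0440), so the difference may be smaller than that bound. At that of *Serpinb10* the mean ratio was -0.27, with an interval of -0.61 to 0.07 that includes 0.

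**Figure D4:**
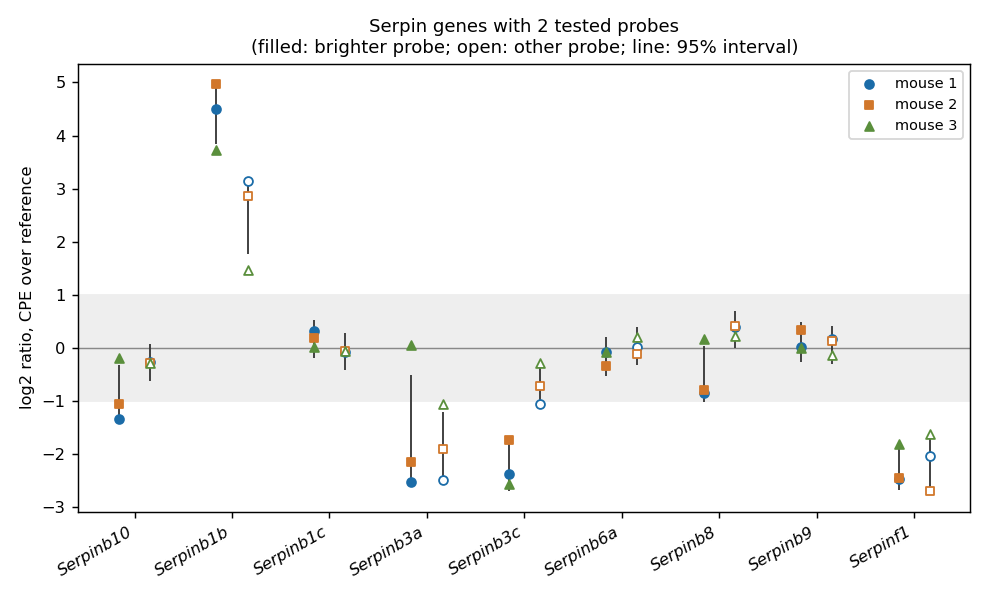
Log2 ratio of CPE over reference (y axis, 1 point per mouse, line for the 95% interval) for the 9 Serpin genes with 2 tested probes (x axis), filled for the brighter probe and open for the other. *Serpinb1b* is above and *Serpinf1* below the 2-fold band at both probes, and the probes of *Serpinb3c* differ, with means of -2.22 and -0.69.

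The log ratio of the scanner software, in place of background correction and loess, gave means over 1.5 times as far from 0 for several Serpins, among them *Serpinb1b* (7.05), *Serpind1* (2.25), *Serpinb3a* (-2.69), *Serpinb3b* (-3.07), *Serpinb3c* (-4.37), *Serpinb8* (-1.10), *Serpinb10* (-2.14) and *Serpina3g* (-1.72). Each of these kept its direction, and *Serpinb10* and *Serpina3g* were then past the threshold. The 17 tested Serpin genes that were not past the threshold had mean ratios from -0.86 to 0.96, and 4 of them (*Serpinb10*, *Serpinb6b*, *Serpinh1* and *Serpini1*) had an adjusted p under 0.05 with a change under 2-fold. The 25 genes not tested had ratios from -0.32 to 0.32. In those neither channel was well above background on every array.

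The arrays differed in depth of signal. Of the 73 Serpin probes, 28 were well above background in the CPE channel of mouse 1, 19 in mouse 2 and 63 in mouse 3, beside 58.5%, 46.0% and 85.6% of all probes. Of the 16 Serpin probes past the threshold, 12 had their ratio nearest to 0 in mouse 3, beside 60.6% of all probes past it, and 15 had the same sign in all mice. Over 17 Serpin probes above background everywhere, the median SD between arrays was 0.31 for CPE levels and 0.50 for reference levels, beside 0.34 and 0.31 over all such probes. Markers of the dissected cells were as labelled, with 10 of 11 choroid plexus markers higher in CPE, at summed intensities of 333310 to 345746 against 24573 to 30910 in the reference. *Ttr* and *Enpp2* were saturated in the CPE on all arrays and *Clic6* on 1, so the CPE sum is a lower limit. In the reference channel, saturation touched the melanocyte marker *Dct* on 3 arrays and the stromal marker *Dcn* on 2, so those sums are lower limits too. Of 9 RPE and melanocyte markers 8 were lower (6879 to 11457 against 145918 to 162537; *Tyr* was not above background in the CPE), of 6 stromal markers 5 (25151 to 33462 against 84877 to 97176), of 7 macrophage markers 4, and of 6 endothelial markers none was past the threshold. Markers of photoreceptors (7 of 7; 5904 to 9574 against 111420 to 127600), muscle (5 of 5; 1564 to 3777 against 5432 to 7585), neurons (3 of 6) and red blood cells (2 of 2) were lower as well. Of 5 astrocyte markers 1 was higher and 1 lower, and of 3 mast cell markers tested 1 was lower. The markers that were lower thus moved with the Serpins that were lower, and their part in those ratios was not tested. Endothelial markers had summed intensities, not corrected for dye, of 9595 to 16061 in the CPE and 7043 to 8852 in the reference. Their median log2 ratio was -0.15, so vessel transcripts were present in the CPE samples. All 6 stromal markers were well above background in the CPE on all arrays, and 5 of them were in the high class. CPE percentiles of these markers ran from 84.4 for *Col3a1* to 98.3 for *Dcn*, so stromal transcripts were present too. The part of stroma in the CPE signals of *Serpinh1*, *Serping1* and *Serpinf1* was not tested. With bulk RNA, fewer cells of a type and less RNA per cell cannot be told apart.

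Proteases that serpins act on, the receptors and cofactors that serpins bind, the collagens and enzymes around *Serpinh1*, and inhibitors of other families were counted in the same way. Of 32 target proteases on the array 21 were tested, 2 higher and 4 lower (median -0.13). *Furin* was higher, with a mean ratio of 1.79, as was the membrane protease *Hpn*, at 1.13, while the cysteine proteases *Ctss* (-3.01) and *Ctsk* (-1.44) and the neuronal protease *Prss12* (-1.94) were lower. Of 21 receptors and cofactors 17 were tested, 0 higher and 6 lower (median -0.40), led by *Lrp2*, at -2.96, an endocytic receptor, then the adhesion protein *Vtn*, at -1.51, and the thrombin receptor *F2r*, at -1.39. With median centring 3 of these were higher and 1 lower.

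Around *Serpinh1*, 16 genes were tested, of which *Plod2*, a collagen lysyl hydroxylase, was higher, at 1.52, and 3 fibrillar collagens were lower, *Col3a1* at -2.24, *Col1a2* at -1.75 and *Col1a1* at -1.19. The median was 0.36, and with median centring 6 were higher and 1 lower. Of 28 inhibitors of other families 23 were tested, 5 higher and 4 lower (median -0.07). *Itih5* (1.81), *Spint2* (1.68) and *Spock2* (1.52) had the highest ratios, and *Timp3* (-2.05), *Spock1* (-1.78) and *Cst6* (-1.42) the lowest. Over all genes tested the shares past the threshold were those given above.

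**Figure D5:**
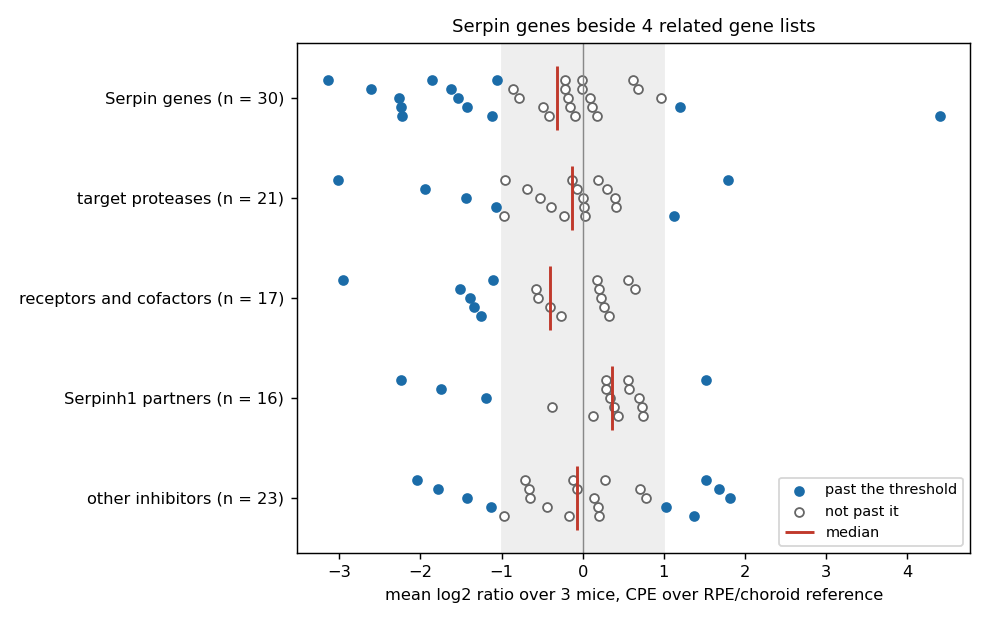
Mean log2 ratio of CPE over reference over 3 mice (x axis) for the tested genes of each list (y axis), 1 probe a gene, with filled points past the threshold, open points not past it and a red line at the median. Serpin genes reach from -3.14 to 4.40, a wider range than in any of the 4 lists, each of which holds fewer tested genes. The upper end is *Serpinb1b* alone, and the next Serpin is *Serpind1* at 1.20.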

How the data were processed

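The 3 CPE samples, 1 per mouse, were hybridised in Cy5 against a single RPE/choroid reference in Cy3, each array on a slide of its own. The deposited scanner tables are output of Agilent Feature Extraction 9.5.3.1, run by the authors, and hold linear spot intensities of both channels, local background intensities and flags for control, outlier, saturated and dim spots. Per the file headers they also hold a log10 ratio of the processed red over green signal. A deposited table of the series holds log2 CPE levels that the authors normalized with Aquantile in R 2.14.0 and limma; it was used as an alternative.

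Spots that were controls or outliers were dropped and replicate spots averaged per probe. Levels were mean log2 intensities without background correction, after Aquantile. Ratios were computed with limma 3.58.1 in R 4.3.3 after normexp correction (offset 50) and loess. Their mean was set against 0 in an intercept fit with a two-sided moderated test and Benjamini-Hochberg adjustment, and the fit was tested on simulated data. A gene was represented by its probe with the highest mean intensity over both channels. A bound set the brighter channel against the lowest signal well above background, after loess and Aquantile, and is open to dye bias. Depth is not defined for arrays; their number limits the precision. Symbols of 65 of the 73 Serpin probes matched RefSeq transcripts, all under the same name; *Serpinb6d* carries another name in the scanner files and was no member. Probe coordinates are mm8, per the file headers, with no exon annotation used here. Promoter windows were aligned with Biopython 1.88.

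Serpin genes named with values had a probe past the threshold, above percentile 90 or with a bound, or probes that differed in direction or call; lists named up to 3 genes a direction. Other Serpins given with values, among them *Serpinb6b*, *Serpinb9*, *Serpina1d*, *Serpina3g*, *Serpini1* and *Serpinf2*, were chosen after their values had been seen. A gene is counted but not reported here. The Serpins, lists and tests were chosen with earlier results of these data known. Alternatives changed background correction, normalization, the filter on dim probes, array weights, the test, the ranking, the members and the probe of a gene, or left out a mouse.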

Additional observations from a re-analysis of the deposited data

How the results depend on the processing

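Arrays of 3 mice, no dye swap, 1 reference RNA and probes near the background limit these results. Mice 1 and 3 were scanned on 1 day and mouse 2 on the next, and without mouse 2 every Serpin gene kept its call. No paired analysis was possible because there was 1 group. Leaving out a mouse gave 2 to 4 Serpin genes higher (probes 3 to 5), 9 to 12 lower (probes 11 to 14), 1 to 2 target proteases higher and 1 to 2 *Serpinh1* partners higher. Without mouse 3 *Serpinb6b* and *Serpina1d* were higher too, and without mouse 1 *Serpinb3a* lost its call.

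With probes above background in both channels alone, 0 Serpin genes (1 probe) were higher and 6 (7 probes) lower, and 2 target proteases lower. *Serpinb1b* and *Serpind1* were then not tested at their brightest probes. Among the lower genes *Serpinb11*, *Serpinb3a*, *Serpinb3b* and *Serpinb3c* were not tested either. In the cluster on chromosome 1 *Serpinb5* alone kept its call. Against a 2-fold null (limma treat), 1 Serpin gene was higher and 6 (7 probes) lower; of target proteases 1 was higher and 2 lower, of receptors 1 lower, of *Serpinh1* partners 0 higher, of other inhibitors 0 higher and 1 lower, and 1414 probes in all were past the threshold, beside 4462. Without background correction 1 Serpin gene and 1 target protease were higher. The log ratio of the scanner software gave 6762 probes in all, 1 target protease higher and 7 lower, 2 *Serpinh1* partners higher, and *Serpinb1c* at -0.086. Median centring moved the median ratio of all probes tested by 0.13 and the share of calls that were higher from 41.1% to 67.0%, with 3 Serpin genes higher and 10 lower. It gave 3 receptors higher and 1 lower, 6 *Serpinh1* partners higher and 1 lower, and *Serpinb6a* at 0.61. Ranked among probes above background, 5 Serpin genes were moderate, 6 low and 3 very low. The causes were not tested. All other counts of Serpins stayed within 1.5 times.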

Other observations

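*Serpinb1b* and *Serpinf1* were the Serpin genes with both outer probes well above background in the CPE on all arrays. The CPE level of mouse 2, minus the mean of mice 1 and 3, was -0.66 at the 5′ and 0.87 at the 3′ probe of *Serpinb1b*, and -1.11 and -0.57 at those of *Serpinf1*. A version with median centring of the channel, chosen after seeing the data, gave 0.17 and 1.84, and -0.02 and 0.73. Mouse 2 was thus lower at the 5′ probe than at the 3′ probe in both genes, on both scales, with no test.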
